A study of Homo sapiens with 4 samples.

Results

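Aminoacyl-tRNA synthetases are the enzymes that join each amino acid to its tRNA, and their genes were followed here through 3 chromatin profiles of SKNMC (SK-N-MC), a long-established cell line from an Ewing sarcoma. The members were taken by symbol, a rule that uses no measured value: 35 of the 20090 protein-coding genes analysed, 19 encoding cytoplasmic enzymes and 16, with symbols ending in 2, encoding mitochondrial ones. They were nonetheless chosen with earlier results of these data known. Chromatin was digested with micrococcal nuclease, sonicated and immunoprecipitated with antibodies to FLI1, to SSRP1 or to histone H3 acetylated at lysine 27 (H3K27ac). Each target had 1 library, the authors called peaks against 1 input library, and the cells were untreated as far as the labels say. Without replicates no test between libraries was possible, so shares carry 95% exact binomial (Clopper-Pearson) intervals that cover counting error only.

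FLI1 is an ETS transcription factor whose DNA-binding domain is carried, in most Ewing sarcomas, by the EWS-FLI1 fusion, which binds ETS sites and runs of GGAA. SSRP1 is a subunit of FACT, a histone chaperone that takes nucleosomes apart and rebuilds them as polymerases pass, and H3K27ac marks active promoters and enhancers. Cytoplasmic synthetases feed the ribosomes of the cytosol, several of them are bound together in the multisynthetase complex, and many of their genes are known targets of ATF4, the transcription factor of the amino acid response. Mitochondrial synthetases are encoded in the nucleus and imported to translate the few proteins of the mitochondrial genome. A gene was counted as carrying a mark when a called peak met the window of 2.5 kb on either side of any of its transcription start sites (TSSs), in the hg19 genome. As a check of the cell type, 6 of 7 Ewing sarcoma marker genes carried all 3 marks (CD99 carried SSRP1 and H3K27ac), while H3K27ac lay at 0 of 8 marker genes of other cell types (interval 0 to 36.9%), although FLI1 lay at 3 of those 8 and SSRP1 at 1.

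Short sequences at the start sites are shown first, because the results on promoter elements turn on them. The letters TGATGNAA are those of the ATF4-C/EBP composite element, known from the promoters of amino acid response genes. In the lines below, given 5′ to 3′ in the direction of the gene, the 8 letters of the element or of its reverse complement are in capitals, at the 7 members that held it within 50 bases of the canonical TSS.
CARS1 (chr11:3078637-3078666): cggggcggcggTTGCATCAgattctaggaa
GARS1 (chr7:30634450-30634479): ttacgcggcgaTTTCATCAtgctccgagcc
IARS1 (chr9:95055974-95056003): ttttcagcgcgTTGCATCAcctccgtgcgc
MARS1 (chr12:57881836-57881865): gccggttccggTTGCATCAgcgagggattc
NARS1 (chr18:55289036-55289065): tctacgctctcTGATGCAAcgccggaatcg
TARS1 (chr5:33441062-33441091): gcgcctttcgaTTGCATCAgctggtccagc
YARS1 (chr1:33282938-33282967): ccgagcccagcTGATGCAAcctggctggac

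The second set shows the ETS core, CCGGAAG or CCGGAAA on either strand, at the 7 members where it lay under a FLI1 peak; the core or its reverse complement is in capitals, again 5′ to 3′ in the direction of the gene. Where a gene held several such cores under the peak, the line gives the one nearest to the TSS.
CARS1 (chr11:3078653-3078681): gtggggcgcgaCTTCCGGggcggcggttg
QARS1 (chr3:49142166-49142194): gtttcttttagTTTCCGGtgtctctgcaa
RARS1 (chr5:167913430-167913458): gggggtttccgCTTCCGGgagaggctgac
SARS1 (chr1:109756456-109756484): ccaaccagccgCTTCCGGtcgcggggagg
YARS1 (chr1:33282994-33283022): gctcctcacttTTTCCGGccgctgccgga
EARS2 (chr16:23568693-23568721): ggaagcagtccCCGGAAGtgacgcaggga
RARS2 (chr6:88299743-88299771): tccggggcgggTTTCCGGcgcggggaggc

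For wider context, a stretch of the CARS1 FLI1 peak, which held both kinds of element, is given on the plus strand of hg19, with ETS cores in capitals. CARS1, the gene of cysteinyl-tRNA synthetase, is transcribed from the minus strand, so its composite element (tgatgcaa, in lower case) reads before the cores.
CARS1 (chr11:3078606-3078755): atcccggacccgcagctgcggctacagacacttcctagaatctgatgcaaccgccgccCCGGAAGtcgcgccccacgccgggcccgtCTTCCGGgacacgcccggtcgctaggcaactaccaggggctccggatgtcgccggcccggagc

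Nearly every synthetase promoter was acetylated, and few carried SSRP1. H3K27ac lay at 34 of the 35 genes (97.1%, interval 85.1 to 99.9), against 57.9% of all protein-coding genes. SSRP1 lay at 8 of the 35 (22.9%, 10.4 to 40.1), against 35.8% of all protein-coding genes. Among the acetylated genes alone the gap was wider: 8 of 34 synthetase genes had SSRP1 (23.5%, 10.7 to 41.2), against 54.7% of the 11623 acetylated genes, a value above the upper bound of the interval. FLI1 lay at 12 of the 35 (34.3%, 19.1 to 52.2), against 29.0% of all protein-coding genes, and at 12 of the 34 acetylated ones (35.3%, 19.7 to 53.5), against 42.1% of acetylated genes. Both background shares for FLI1 lay inside the members' intervals. All 3 marks met at 4 of the 35 (11.4%, 3.20 to 26.7), against 17.3% of all protein-coding genes, or at 4 of the 34 acetylated ones (11.8%, 3.30 to 27.5), against 30.0% of acetylated genes.

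The enzymes of the cytosol and of the mitochondrion carried the marks in like shares. SSRP1 lay at 4 of 19 cytoplasmic genes (21.1%, 6.05 to 45.6) and at 4 of 16 mitochondrial genes (25.0%, 7.27 to 52.4). FLI1 lay at 7 of 19 cytoplasmic genes (36.8%, 16.3 to 61.6) and at 5 of 16 mitochondrial genes (31.2%, 11.0 to 58.7). H3K27ac lay at 19 of 19 cytoplasmic genes (82.4 to 100%) and at 15 of 16 mitochondrial genes (93.8%, 69.8 to 99.8). All 3 marks met at 2 cytoplasmic genes (10.5%, 1.30 to 33.1) and at 2 mitochondrial genes (12.5%, 1.55 to 38.3). The intervals of the 2 compartments overlapped for each mark and are wide, so a difference of the size of these gaps was not detectable with these numbers of genes. GARS1 and KARS1 each encode the enzyme of both compartments and were counted with the cytoplasmic genes by symbol. Neither carried FLI1 or SSRP1.

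**Figure D1:**
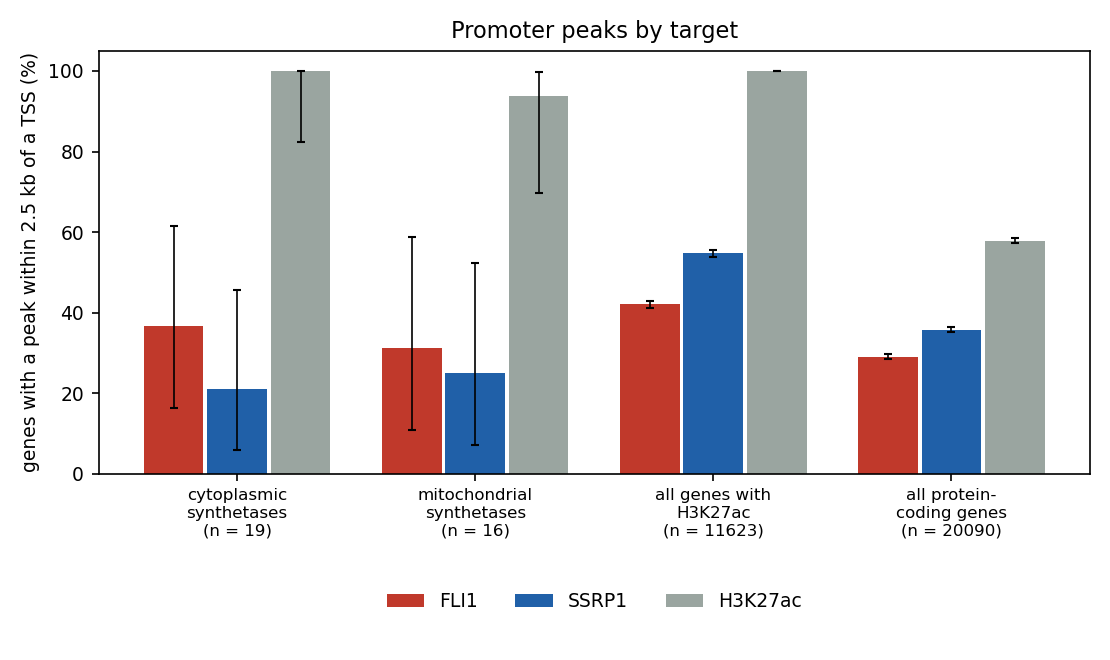
Share of genes with a called FLI1, SSRP1 or H3K27ac peak within 2.5 kb of a TSS, in percent, for the cytoplasmic synthetase genes, the mitochondrial synthetase genes, all genes with H3K27ac and all protein-coding genes; error bars are 95% Clopper-Pearson intervals. The SSRP1 bars of the synthetase groups stand at 21.1% and 25.0%, against 54.7% of acetylated genes; counted over its 15 acetylated members the mitochondrial share is 26.7%, with an interval (7.79 to 55.1) that includes 54.7%.

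H3K27ac was the only mark at 18 of the 34 acetylated synthetase genes, 10 cytoplasmic and 8 mitochondrial (52.9%, 35.1 to 70.2), against 33.1% of all acetylated genes. FLI1 and H3K27ac without SSRP1 lay at 8 genes: CARS1, IARS1, MARS1, QARS1 and SARS1 of the cytoplasmic set, and EARS2, RARS2 and SARS2 of the mitochondrial set. SSRP1 and H3K27ac without FLI1 lay at 4: NARS1, VARS1, CARS2 and WARS2. All 3 lay at RARS1, YARS1, IARS2 and VARS2. LARS2, the mitochondrial leucyl-tRNA synthetase, carried none.

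**Figure D2:**
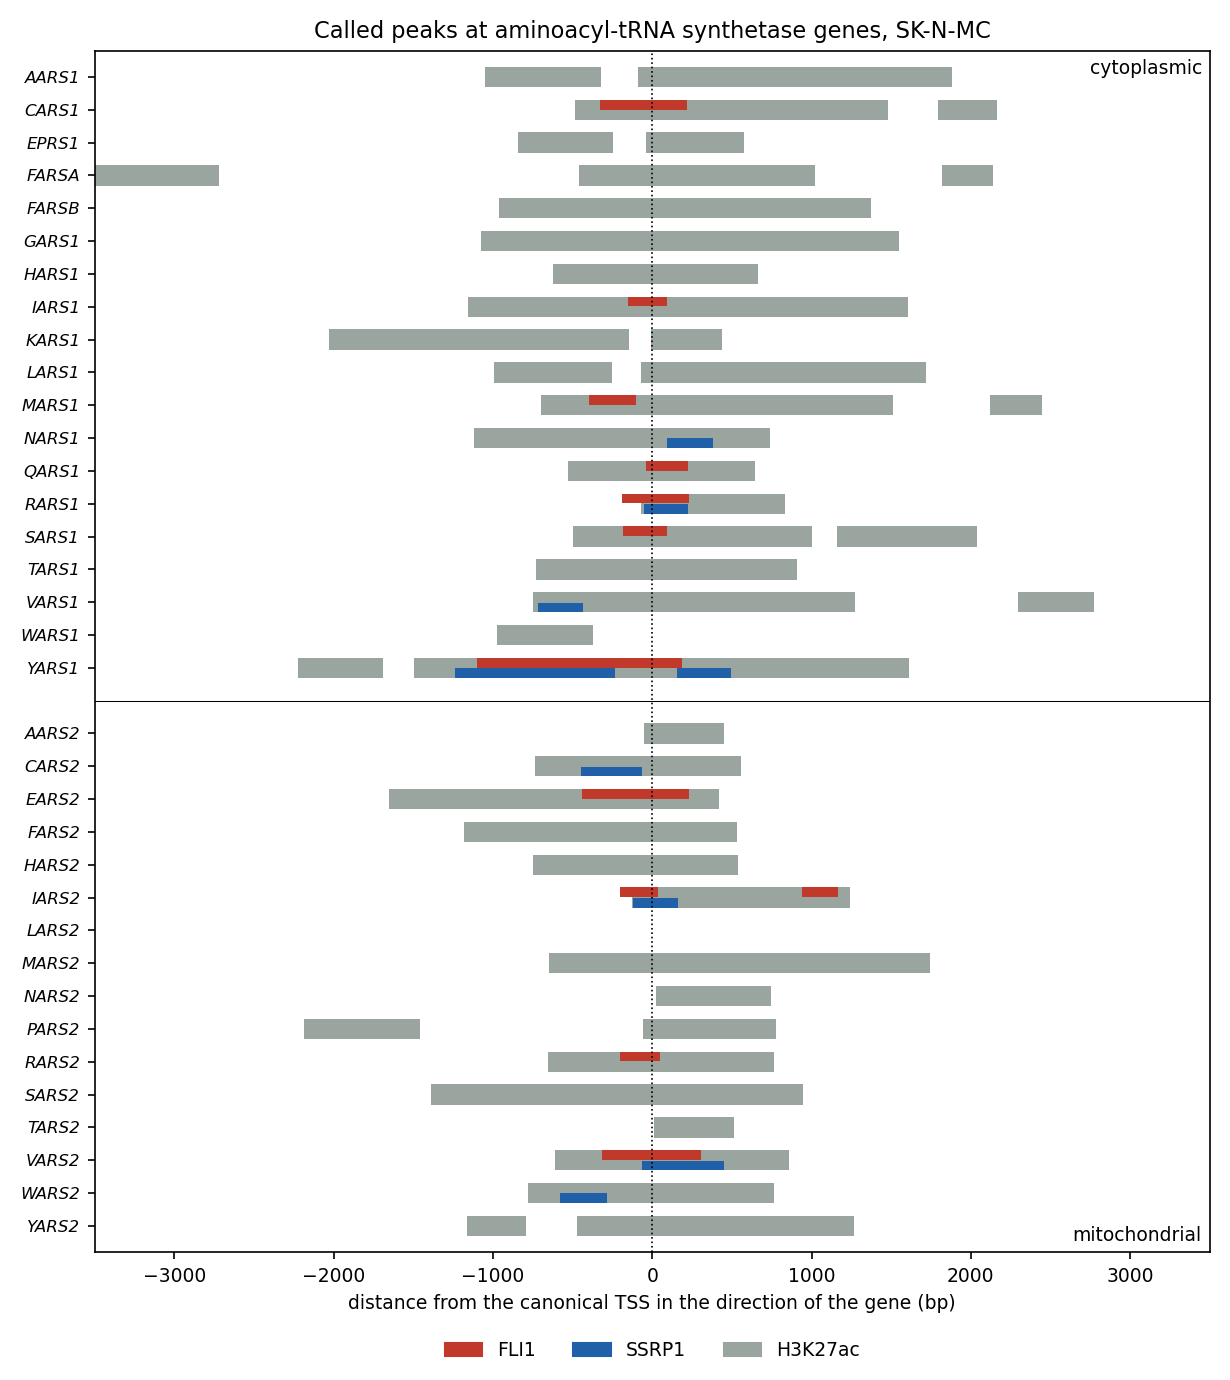
Called peaks within 2.5 kb of a TSS of each synthetase gene, drawn by distance from the canonical TSS in bp, with the gene running to the right; FLI1 is red, SSRP1 blue and H3K27ac grey. The FLI1 and SSRP1 peaks of RARS1, YARS1, IARS2 and VARS2 overlap near the TSS, the row of LARS2 is empty, and the FLI1 peak of SARS2, at an internal TSS between 12647 and 12956 bp downstream, lies outside the drawn range.

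At the 4 genes with all 3 marks, the FLI1 and SSRP1 peaks overlapped each other over or beside the start site. RARS1 on chromosome 5 (167913456 to 167946306, plus strand) encodes arginyl-tRNA synthetase of the multisynthetase complex. Its FLI1 peak of 424 bp covered a TSS, and its SSRP1 peak of 282 bp lay wholly inside the FLI1 peak, covering 66.5% of it. H3K27ac there was 902 bp wide and began close to the SSRP1 peak, so that 71.0% of the FLI1 peak was acetylated. The ETS core printed above for RARS1 lay inside both peaks, 35 bases from the canonical TSS.

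YARS1, the gene of tyrosyl-tRNA synthetase on chromosome 1 (33240838 to 33283632, minus strand), had the widest FLI1 and SSRP1 peaks of the family. Its FLI1 peak measured 1286 bp and its SSRP1 peaks 1004 and 342 bp, under 3114 bp of H3K27ac. The wider SSRP1 peak shared 866 bp with the FLI1 peak, or 67.3% of the FLI1 peak, and the narrower one shared 34 bp. The promoter is shared: the TSS of S100PBP, on the opposite strand, lay 84 bp from one of YARS1, and S100PBP also carried all 3 marks. Which of these genes a peak belongs to cannot be told apart.

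IARS2 and VARS2 encode the mitochondrial isoleucyl- and valyl-tRNA synthetases. At IARS2 on chromosome 1 (220267474 to 220321383, plus strand), FLI1 peaks measured 237 and 227 bp, the first over the TSS and the second 938 bp downstream. The SSRP1 peak of 282 bp shared 159 bp with the first, and H3K27ac spanned 1367 bp, covering 69.2% of that FLI1 peak. At VARS2 on chromosome 6 (30881982 to 30894236, plus strand), the FLI1 peak of 621 bp and the SSRP1 peak of 516 bp shared 368 bp inside 1472 bp of H3K27ac. IARS2 held no ETS core within 500 bases of its canonical TSS, and the core of VARS2 lay 368 bases downstream, inside the SSRP1 peak and outside the FLI1 peak.

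Most FLI1 peaks at the family lay over start sites. Of the 13 FLI1 peaks at the 12 genes, 11 covered a TSS of the gene (84.6%, 54.6 to 98.1), against 37.9% of 6428 FLI1 peaks at acetylated genes, a peak being counted for each gene whose window it met. The widest peak per gene had a median of 303.5 bp (237 to 1286), against 368 bp at the 4896 acetylated genes with FLI1. It reached the median of the FLI1 list, 283 bp, at 7 of the 12 synthetase genes (58.3%), against 72.8% of acetylated genes with FLI1. After YARS1, the widest were at EARS2, the gene of mitochondrial glutamyl-tRNA synthetase (677 bp), VARS2 (621 bp) and CARS1 (549 bp). The peaks at SARS1 (274 bp), QARS1 (269 bp), RARS2 (253 bp) and IARS1 (246 bp), which encode seryl-, glutaminyl-, mitochondrial arginyl- and isoleucyl-tRNA synthetase, were all narrower than the median of the FLI1 list. These 4 peaks each covered a TSS and lay wholly within H3K27ac.

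The FLI1 calls at MARS1 and SARS2 differed in place from the others. At MARS1, the gene of methionyl-tRNA synthetase, the 297 bp peak ended 101 bp before a TSS. An ETS core of this promoter begins 104 bases from the canonical TSS, so it straddled the end of the peak and was not counted as inside. The letters CTGTANTCC occur in Alu repeats and were searched after the sequences were seen. They were found in 2 of the 13 FLI1 peaks (15.4%, 1.92 to 45.4), that of MARS1 and the second peak of IARS2. The share at acetylated genes, 7.14% of 5586 FLI1 peaks, lay inside that interval. Without the FLI1 peaks that held these letters, FLI1 lay at 6 of 19 cytoplasmic genes (31.6%). It still lay at 5 of 16 mitochondrial genes, since IARS2 kept its first peak. The same letters were found in 1 of the 9 SSRP1 peaks, that of VARS1 (11.1%), against 3.62% of the 8179 SSRP1 peaks at acetylated genes. The part of repeats in these calls was not tested. At SARS2, the gene of mitochondrial seryl-tRNA synthetase on chromosome 19 (39405906 to 39421403, minus strand), the 310 bp FLI1 peak covered an internal TSS, was 0% covered by H3K27ac and lay far from the acetylated promoter of 2337 bp. Counting only canonical TSSs took this call away and gave 4 of 16 mitochondrial genes (25.0%).

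The SSRP1 peaks at the family were mostly narrow. The widest SSRP1 peak per gene had a median of 292 bp (282 to 1004), against 532.5 bp at the 6358 acetylated genes with SSRP1. The narrowest SSRP1 peak in the whole list was 282 bp, the width found at RARS1, VARS1 and IARS2. NARS1 had 291 bp, WARS2 293 bp, CARS2 384 bp, VARS2 516 bp and YARS1 1004 bp. Only VARS2 and YARS1 reached the median of the SSRP1 list, 403 bp, or 25.0% of the 8 genes, against 70.3% of acetylated genes with SSRP1. When peaks below the median width of each list were left out, SSRP1 remained at 2 of the 35 genes (5.71%). It remained at 24.4% of all protein-coding genes, and at 41.7% of those still acetylated, a narrower set than all 35 members.

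Of the 9 SSRP1 peaks, 4 covered a TSS of the gene (44.4%, 13.7 to 78.8), against 39.3% of 9426 SSRP1 peaks counted likewise at acetylated genes, a share inside the interval. At NARS1, the gene of asparaginyl-tRNA synthetase, the peak began 91 bp downstream of the TSS. At the other 3 genes with SSRP1 and no FLI1, the peak lay upstream, 438 bp from the TSS of VARS1 (valyl-tRNA synthetase), 63 bp from that of CARS2 (mitochondrial cysteinyl-tRNA synthetase) and 286 bp from that of WARS2 (mitochondrial tryptophanyl-tRNA synthetase). All 9 SSRP1 peaks at the family were covered by H3K27ac over their whole length.

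At the 27 genes without SSRP1 in the window, the nearest SSRP1 peak lay a median of 43.7 kb from a TSS (3.94 to 730 kb). The distance exceeded 25 kb at 17 of the 27. It was not computed for other genes, so whether it is longer than usual was not tested. FARSA at 3.94 kb, CARS1 at 4.35 kb and SARS2 at 4.98 kb were the 3 genes with an SSRP1 peak within 5 kb. A window of 5 kb therefore gave 11 of 35 genes (31.4%, 16.9 to 49.3). The share was 38.4% of all protein-coding genes, inside the interval, and 56.9% of those acetylated in that window, above it. The farthest was TARS1, the gene of threonyl-tRNA synthetase, at 730 kb. Away from the promoter, SSRP1 peaks lay inside 8 of the 35 members, as at CARS1 with 4 and CARS2 with 3. FLI1 peaks lay inside 13 of the members outside the windows, and CARS1 and FARS2, the gene of mitochondrial phenylalanyl-tRNA synthetase, had 4 each. Peaks inside the gene were not counted for other genes.

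In all acetylated genes SSRP1 was more frequent where H3K27ac was wider and where FLI1 was present, and the synthetase genes were set against both. The widest H3K27ac peak at a TSS had a median of 1679.5 bp at the 34 acetylated synthetase genes (502 to 3326), against 1379 bp at all acetylated genes. Over all acetylated genes, those with SSRP1 had wider H3K27ac (median 1652.5 bp) than those without (1119 bp). Synthetase genes with SSRP1 had a median of 1510 bp and those without 1730.5 bp, with overlapping ranges of 902 to 3114 bp and 502 to 3326 bp. Divided by the quartiles of all acetylated genes, SSRP1 lay at 0 of 6, 3 of 6, 3 of 12 and 2 of 10 synthetase genes from the narrowest H3K27ac to the widest, against 33.9%, 46.8%, 59.0% and 79.1% of all acetylated genes. In the widest quartile the share was 20.0% (2.52 to 55.6) for synthetase genes, against 79.1%, which lies above the interval, while in the 2 narrowest quartiles the intervals include the share of all acetylated genes. FARSA stood in the widest quartile, and KARS1 in the next, through a peak nearest to a neighbouring gene (3326 and 1885 bp). Over their own TSSs the peaks measured 1487 and 443 bp. FLI1 in the same quartiles lay at 0 of 6, 3 of 6, 4 of 12 and 5 of 10 synthetase genes, against 27.6%, 36.8%, 45.5% and 58.7%.

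**Figure D3:**
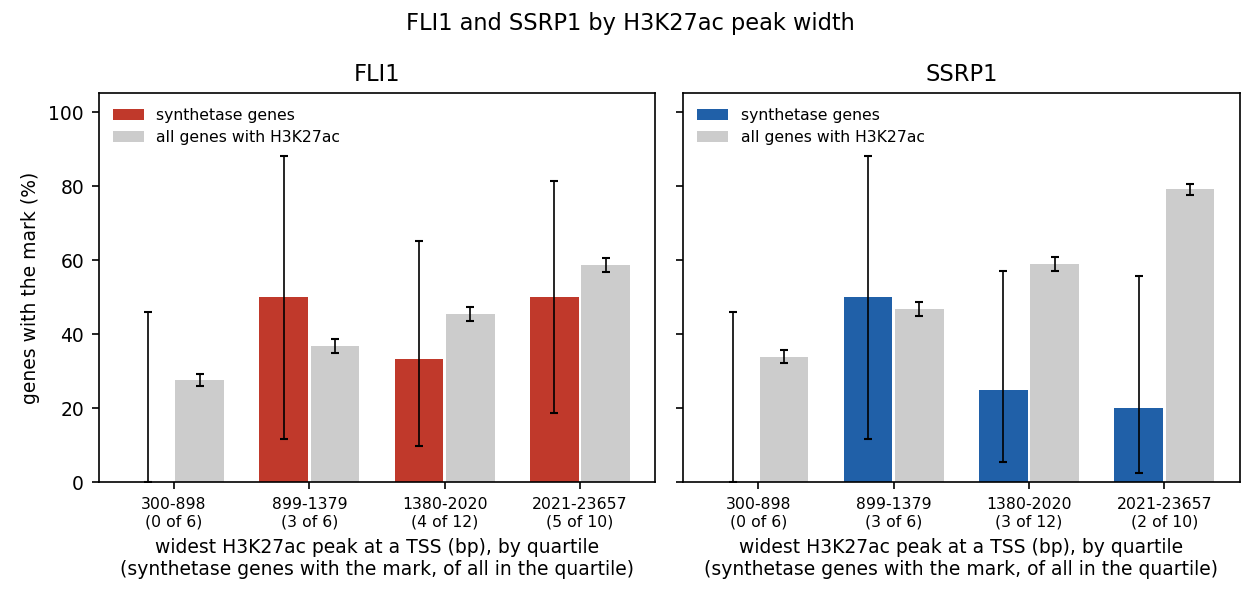
Share of genes with FLI1 (left) and SSRP1 (right), in percent, by quartile of the widest H3K27ac peak at a TSS in bp, with coloured bars for synthetase genes and grey bars for all genes with H3K27ac; error bars are 95% Clopper-Pearson intervals and the counts of synthetase genes stand under each quartile. The grey SSRP1 bars climb to 79.1% in the widest quartile, where 2 of 10 synthetase genes (20.0%) had SSRP1. FARSA is among these 10 through a peak at the promoter of the neighbouring CALR.

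Where FLI1 was present, SSRP1 lay at 4 of 12 acetylated synthetase genes (33.3%, 9.92 to 65.1), against 71.1% of 4896 acetylated genes with FLI1. Where FLI1 was absent, it lay at 4 of 22 (18.2%, 5.19 to 40.3), against 42.8% of 6727. By number of annotated start sites, SSRP1 lay at 7 of 17 acetylated synthetase genes with 1 to 2 TSSs (41.2%, 18.4 to 67.1), 1 of 8 with 3 to 5 (12.5%, 0.316 to 52.7) and 0 of 9 with 6 or more (0 to 33.6%). In all acetylated genes the shares were 52.4%, 56.6% and 58.4% over the same classes, so the background lay inside the interval for genes with 1 to 2 TSSs and above it for the others. FLI1 and SSRP1 peaks were sparse in some stretches of the genome in these libraries, and 4 members lie there: AARS1 and KARS1 on chromosome 16 and QARS1 and LARS2 on chromosome 3. Outside those stretches SSRP1 lay at 8 of 31 acetylated synthetase genes (25.8%, 11.9 to 44.6), against 59.6% of 10059 acetylated genes. By compartment it lay there at 4 of 16 cytoplasmic genes (25.0%, 7.27 to 52.4) and at 4 of 15 mitochondrial genes (26.7%, 7.79 to 55.1).

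The H3K27ac peaks themselves covered the start sites of nearly all members. At 33 of the 34 acetylated genes a peak covered a TSS of the gene, and at TARS2, the mitochondrial threonyl-tRNA synthetase gene, it began 11 bp from one. The same share was not computed for all acetylated genes, so whether it is particular to the members was not tested. Cytoplasmic genes had a median widest peak of 1885 bp (602 to 3326) and mitochondrial genes 1422 bp (502 to 2398), with overlapping ranges. Counting only peaks nearest to the gene's own TSS, the medians were 1787 and 1422 bp. At FARSA, which encodes the catalytic subunit of phenylalanyl-tRNA synthetase, the 3326 bp peak belonged to the promoter of the neighbouring CALR, and the gene's own peak was 1487 bp. YARS1 (3114 bp), IARS1 (2766 bp), GARS1 (2626 bp), MARS2 (2398 bp) and SARS2 (2337 bp) followed, and FARSB, the gene of the other phenylalanyl subunit, had 2336 bp. The narrowest were TARS2 (502 bp), AARS2 (508 bp), WARS1 (602 bp) and EPRS1 (616 bp). At several genes a gap upstream of the start divided the acetylation into separate peaks. EPRS1, the gene of the fused glutamyl- and prolyl-tRNA synthetase, had a peak from -42 to 573 bp of the canonical TSS and another of 597 bp from -843 to -247 bp. LARS1, whose product also senses leucine, had peaks from -69 to 1717 bp and from -995 to -254 bp, and AARS1 from -92 to 1881 bp and from -1049 to -320 bp. At KARS1 the peak over the TSS was 443 bp wide, and the wider one of 1885 bp lay 21 bp from a TSS of TERF2IP, a telomere protein gene.

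LARS2 on chromosome 3 (45430053 to 45596218, plus strand) was the single member without a mark. The nearest H3K27ac and FLI1 peaks were each 119 kb from its TSSs, inside the gene, where a 684 bp H3K27ac peak and a 419 bp FLI1 peak overlapped, and the nearest SSRP1 peak lay 205 kb away. Of the 10 other coding genes with a TSS within 500 kb, 4 carried H3K27ac, 0 FLI1 and 1, LIMD1, SSRP1. The partner enzyme of the cytosol, LARS1, carried H3K27ac alone.

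Genes that handle the same amino acid in the cytosol and in the mitochondrion were also compared as pairs. Of 17 such pairs, counted with EPRS1 against EARS2 and PARS2 and with FARSA and FARSB against FARS2, 7 had the same marks. Pairs of unrelated genes were not counted, so whether enzyme pairs agree more or less than other pairs was not tested. FLI1 lay at both genes of 3 pairs, IARS1 with IARS2, RARS1 with RARS2 and SARS1 with SARS2, at SARS2 only at its internal TSS. SSRP1 lay at both genes of 1 pair, VARS1 with VARS2. The other 10 pairs differed in at least 1 mark. CARS1 had FLI1 and CARS2 had SSRP1, each with H3K27ac. FLI1 lay at MARS1 and not at MARS2, and at EARS2 and not at EPRS1. SSRP1 lay at NARS1 and not at NARS2, at WARS2 and not at WARS1, at RARS1 and not at RARS2, and at IARS2 and not at IARS1. VARS2 had the FLI1 that VARS1 lacked, YARS1 had all 3 marks and YARS2 H3K27ac alone, and LARS1 had the H3K27ac that LARS2 lacked. HARS1 and HARS2, which encode the histidyl-tRNA synthetases and are transcribed away from each other, have TSSs 37 bp apart and share 1 H3K27ac peak of 1285 bp, so they are not independent observations.

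Synthetases fall into 2 structural classes that arose separately. FLI1 lay at 10 of 18 class I genes (55.6%, 30.8 to 78.5) and at 2 of 16 class II genes (12.5%, 1.55 to 38.3), SARS1 and SARS2. The SARS2 call is the one at an internal TSS, which is lost when only canonical TSSs are counted. SSRP1 lay at 7 of 18 class I genes (38.9%, 17.3 to 64.3) and at 1 of 16 class II genes (6.25%, 0.158 to 30.2), NARS1. All 4 genes with the 3 marks were class I, against 0 of 16 class II genes (0 to 20.6%). H3K27ac lay at 17 of 18 class I genes and at 16 of 16 class II genes, and EPRS1, which has a domain of each class, was left out. The ETS core within 500 bases of the TSS did not follow this division by count, at 12 of 18 class I genes (66.7%, 41.0 to 86.7) and 11 of 16 class II genes (68.8%, 41.3 to 89.0). The background shares of acetylated genes, 42.1% for FLI1 and 54.7% for SSRP1, lay inside the class I intervals and above the class II intervals, and the intervals of the classes overlapped for both marks. The division by class was chosen with values of these data known and was not tested. Of the 7 members that belong to the multisynthetase complex, 4 had FLI1 (IARS1, MARS1, QARS1 and RARS1) and 1 had SSRP1 (RARS1), and of the 12 cytoplasmic genes outside it 3 had FLI1 and 3 SSRP1.

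Several members share a promoter region with a neighbour. At 11 of the 34 acetylated synthetase genes another coding TSS on the opposite strand lay within 1 kb (32.4%, 17.4 to 50.5), against 21.6% of acetylated genes, a share inside the interval. The distances were 60 bp for AARS1 with DDX19B, 98 bp for WARS1 with WDR25, 108 bp for KARS1 with TERF2IP, 635 bp for MARS1 with ARHGAP9, 4 bp for EARS2 with UBFD1, 39 bp for RARS2 with ORC3, 94 bp for FARS2 with LYRM4 and 181 bp for SARS2 with MRPS12. The others were YARS1 with S100PBP and HARS1 with HARS2, above. Of these 11 genes 5 had FLI1 (45.5%, 16.7 to 76.6) and 1 had SSRP1 (9.09%, 0.230 to 41.3), against 43.3% and 48.7% of the 2509 acetylated genes with such a neighbour. ORC3, a subunit of the origin recognition complex, carried FLI1 and H3K27ac as RARS2 did. MRPS12, a mitochondrial ribosomal protein gene, had H3K27ac alone. SARS2 is 1 of the 5 genes counted with FLI1, but its peak lay at an internal TSS, 12647 bp or more downstream of the canonical one. That peak is thus not at the promoter shared with MRPS12.

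The composite element was more frequent by count at cytoplasmic genes, but the intervals of the compartments overlapped in each window and no test of the difference was made. Searched on both strands within 500 bases of the canonical TSS, TGATGNAA was found at 11 of 19 cytoplasmic genes (57.9%, 33.5 to 79.7), at 2 of 16 mitochondrial genes (12.5%, 1.55 to 38.3), FARS2 and YARS2, and at 5.07% of all acetylated genes. Within 50 bases of the TSS it was found at the 7 cytoplasmic genes printed above (36.8%, 16.3 to 61.6), at 0 of 16 mitochondrial genes (0 to 20.6%) and at 0.404% of acetylated genes. The other cytoplasmic genes with it were AARS1, EPRS1, HARS1 and WARS1. In the stricter form TGATGCAA it was found at 9 cytoplasmic genes (47.4%, 24.4 to 71.1) and 1 mitochondrial gene, FARS2, against 1.11% of acetylated genes. In RefSeq's promoter table (GRCh38.p14, 250 bases before to 50 after the gene start), which held 30 of the 35 members, it was found at 6 of 16 cytoplasmic genes (37.5%, 15.2 to 64.6), 1 of 14 mitochondrial genes (7.14%, 0.181 to 33.9) and 1.58% of acetylated genes. LARS1, VARS1, YARS1, AARS2 and VARS2 were not matched in that table. A match describes the letters and does not show that a factor is bound.

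Of the 13 composite elements, 11 lay inside an H3K27ac peak, 3 inside a FLI1 peak (CARS1, IARS1 and YARS1) and 0 inside an SSRP1 peak. Elements inside peaks were not counted at other genes, so whether these counts are high or low was not tested. The elements of AARS1 and WARS1 lay outside the acetylated stretch, at -187 and -266 bases of the canonical TSS. At AARS1 that position falls in the gap between its H3K27ac peaks. SSRP1 lay at 2 of the 13 genes with the element, NARS1 and YARS1 (15.4%, 1.92 to 45.4), and at 45.7% of all acetylated genes with it. FLI1 lay at 4 of the 13 (30.8%, 9.09 to 61.4), CARS1, IARS1, MARS1 and YARS1, against 40.1% of all acetylated genes with it.

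**Figure D4:**
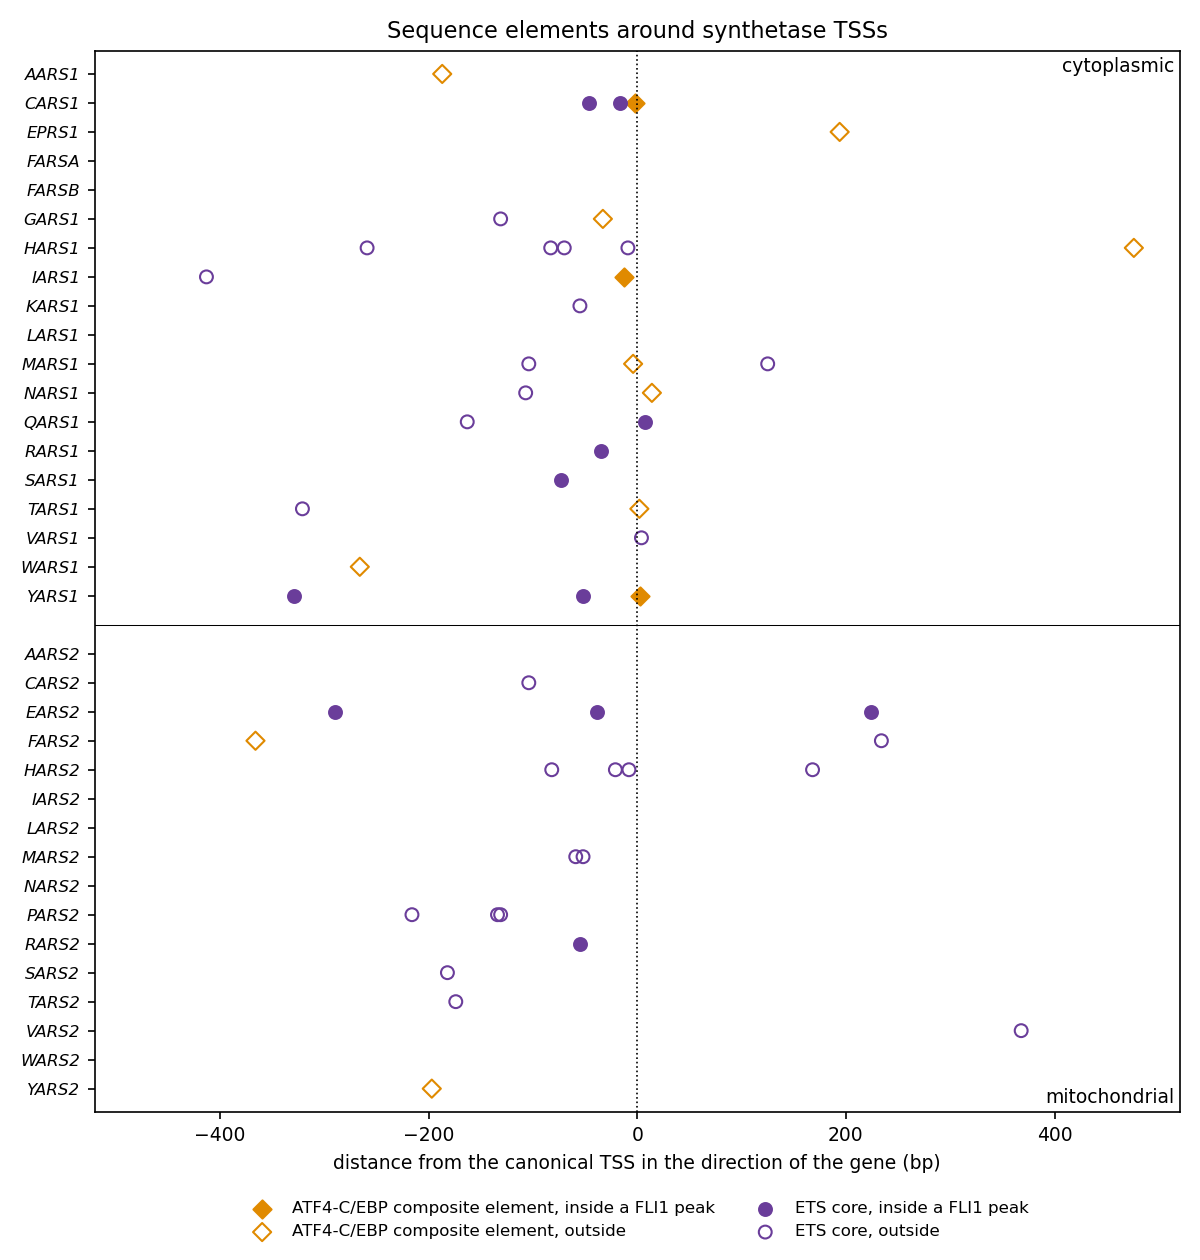
Positions of the composite element TGATGNAA (diamonds) and of the ETS core (circles) within 500 bases of the canonical TSS of each synthetase gene, in bp in the direction of the gene; filled symbols lie inside a FLI1 peak and open ones outside. Composite elements gather at the TSS of cytoplasmic genes, 7 of them within 50 bases, and the 2 mitochondrial ones lie upstream at -366 and -197.

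ETS cores were frequent in both compartments. In RefSeq's promoters the core was found at 10 of 16 cytoplasmic genes (62.5%, 35.4 to 84.8) and at 7 of 14 mitochondrial genes (50.0%, 23.0 to 77.0), against 26.0% of acetylated genes and 18.2% of all 15842 promoters. Within 500 bases of the canonical TSS it was found at 23 of the 35 genes (65.7%, 47.8 to 80.9), against 40.6% of acetylated genes. FLI1 lay at 11 of the 23 acetylated synthetase genes with such a core (47.8%, 26.8 to 69.4) and at 1 of the 11 without (9.09%, 0.230 to 41.3), IARS2. Over all acetylated genes these shares were 46.6% with the core and 39.0% without. The synthetase share with the core was thus close to the background, and the interval without it includes the background. SSRP1 lay at 6 of 23 with the core (26.1%, 10.2 to 48.4) and at 2 of 11 without (18.2%, 2.28 to 51.8), against 49.3% and 58.4% of acetylated genes.

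Of the 38 cores counted at these 23 genes, 11 lay inside a FLI1 peak, at the 7 genes printed above, and 4 inside an SSRP1 peak, while 33 were acetylated. Cores inside peaks were not counted at other genes. The 4 cores around the start sites of HARS1 and HARS2 were counted for both genes and lay in their shared H3K27ac peak. No FLI1 peak lay within 22.4 kb of a HARS1 TSS. By peak, 7 of the 13 FLI1 peaks at the family held the core (53.8%, 25.1 to 80.8), against 27.7% of FLI1 peaks at acetylated genes. Among the 9 SSRP1 peaks 4 held it (44.4%, 13.7 to 78.8), against 18.7% of 8179. Both background shares lay inside the intervals. No run of at least 4 GGAA was found within 500 bases of the TSS of any member (0 of 35, 0 to 10.0%), and it was rare at acetylated genes too (0.138%).

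Other genes of tRNA charging and of the amino acid response were set beside the family. The 17 amino acid response genes, which include ATF4 and its targets, had SSRP1 at 14 (82.4%, 56.6 to 96.2), FLI1 at 6 (35.3%, 14.2 to 61.7) and H3K27ac at 17. ATF4 itself, GCN1, ASNS, PHGDH, DDIT3 and CEBPB carried all 3 marks. Among the 8 of these genes with the composite element, 7 had SSRP1 (87.5%, 47.3 to 99.7), against 2 of the 13 synthetase genes with it, and the intervals of the 2 shares did not overlap. The element was found at 13 of the 35 synthetase genes in all, the lists were chosen with values of these data known, and no test of the difference was made.

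**Figure D5:**
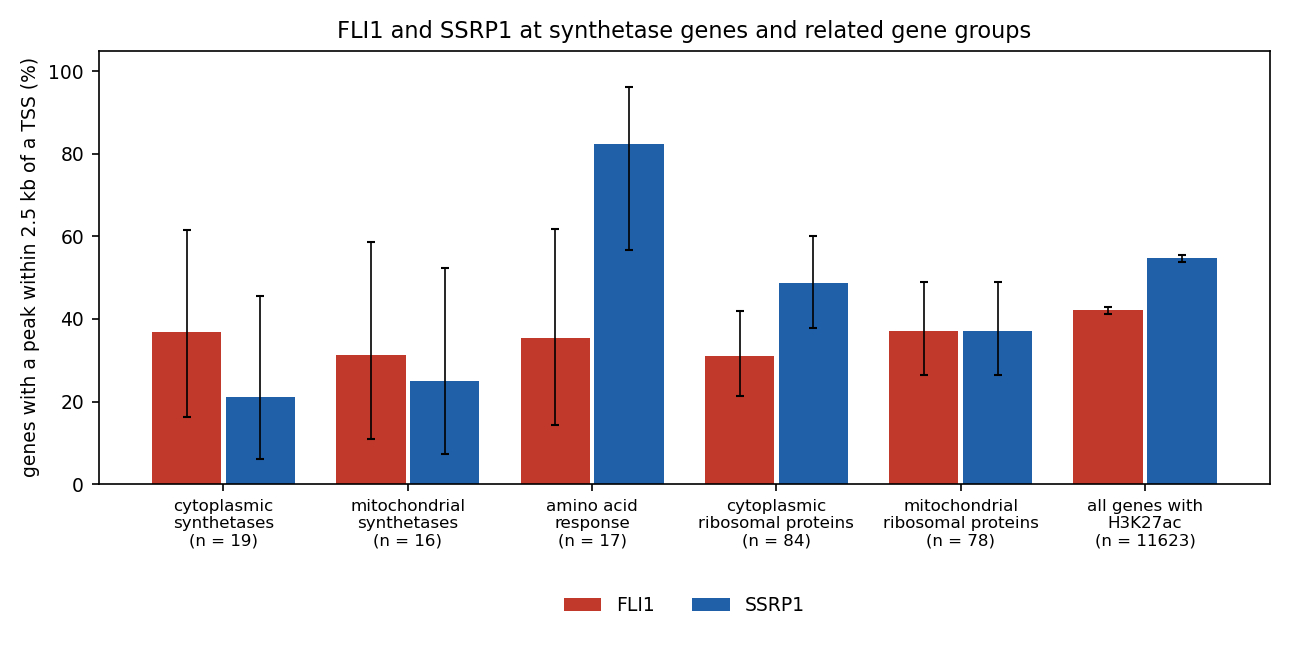
Share of genes with FLI1 (red) and SSRP1 (blue) within 2.5 kb of a TSS, in percent, in the cytoplasmic and mitochondrial synthetase genes, 3 related gene groups and all genes with H3K27ac; error bars are 95% Clopper-Pearson intervals. SSRP1 stands at 21.1% and 25.0% in the synthetase groups and at 82.4% in the amino acid response genes, while FLI1 lies between 31.0% and 42.1% in every group drawn.

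The ribosomal protein genes, the nearest groups by function, had SSRP1 shares between those of the synthetase and the amino acid response genes. SSRP1 lay at 4 of 19 cytoplasmic synthetase genes (21.1%) and at 41 of 84 cytoplasmic ribosomal protein genes (48.8%, 37.7 to 60.0), whose H3K27ac was wider, with a median of 2143.5 bp. It lay at 4 of 16 mitochondrial synthetase genes (25.0%) and at 29 of 78 mitochondrial ribosomal protein genes (37.2%, 26.5 to 48.9), with a median H3K27ac of 1301.5 bp. Of the acetylated genes alone, SSRP1 lay at 41 of 82 cytoplasmic (50.0%, 38.7 to 61.3) and 29 of 78 mitochondrial ribosomal protein genes. The 54.7% of all acetylated genes lay inside the first interval and above that of the mitochondrial group. A share below that background was thus not particular to the synthetase genes. FLI1 lay at 26 of the 84 (31.0%) and at 29 of the 78 (37.2%), against 36.8% of cytoplasmic and 31.2% of mitochondrial synthetase genes. The intervals of the synthetase genes and of their ribosomal counterparts overlapped in both compartments.

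The partners of the synthetases were few and mostly acetylated only. Of the scaffold proteins of the multisynthetase complex, AIMP1 and EEF1E1 carried H3K27ac alone and AIMP2 also FLI1. Of 4 genes that make mitochondrial glutaminyl-tRNA and formylmethionyl-tRNA, GATC had SSRP1, while GATB, QRSL1 and MTFMT had H3K27ac alone. Of 4 genes of selenocysteine synthesis and delivery, SEPHS2 had FLI1, EEFSEC had SSRP1, and PSTK and SEPSECS had H3K27ac alone. Of the factors that deliver charged tRNA to ribosomes, EEF1A1 and the mitochondrial TUFM carried all 3 marks, and EEF1A2, expressed mainly in muscle and neurons, carried none.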

How the data were processed

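ChIP-seq was made of SKNMC cells, with 1 library for each of FLI1, SSRP1 and H3K27ac and 1 input library (4 samples), grouped by title. The authors mapped the reads with Bowtie2 on the hg19 build, per the series' design text. Their peaks came from MACS2, with the input as control and a q-value threshold of 0.05, per the same text; the submitters' processing notes give MACS2 2.2.7.1. Duplicate and multiply mapped read filters are not given in the sources used here, and read depth was not analysed here.

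The deposited lists give the start and end position of each peak, with no height or score. Repeated lines of 1 interval were merged: 38324 FLI1 lines gave 36539 peaks, 23078 SSRP1 lines 19955, and 62198 H3K27ac lines 37271. On chromosomes 1 to 22 and X these were 36305, 19855 and 37195 peaks. All these chromosomes of the GRCh37 reference were longer than the last peak on them.

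TSSs were those of basic transcripts in GENCODE release 44 lifted to GRCh37. Motifs were counted on both strands in RefSeq promoters and within 500 bases of the canonical TSS; CCGGAA, a shorter ETS core, is contained in the core searched, and CTGTANTCC was added after the sequences were seen. Intervals are Clopper-Pearson, and no p-value was computed. Alternatives were windows of 1 and 5 kb, 1 TSS per gene, peaks of at least the median width, at least 20% of the peak in the window, peaks nearest to the gene's own TSS, members without sparse regions, and no GARS1 and KARS1. All 35 members could be named, in full for those with all 3 marks or none, for pairs whose marks differ and for those with an ETS core under FLI1. The window search was tested on simulated data: of 2000 genes, 600 were given a peak, 600 were recovered and 0 others were called. The members, lists and classes were chosen with earlier results of these data known. Computations used samtools 1.23.1, scipy 1.17.1, pandas 2.3.3 and numpy 2.4.6 under Python 3.11.15.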

Additional observations from a re-analysis of the deposited data

How the results depend on the processing

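Of 85 values recomputed under the alternatives, 74 stayed close to the value reported and 11 did not. Close means, for a share, within 1.5 times the value and inside its interval, and, for a median width, inside the quartiles of the genes; several of the 11 lie inside the interval. Keeping only peaks at or above the median width of their list gave FLI1 at 21.1% of cytoplasmic and 18.8% of mitochondrial genes. This compares with 20.1% of all protein-coding genes and 32.8% of genes still acetylated. The same setting gave SSRP1 at 5.26% of cytoplasmic and 6.25% of mitochondrial genes, against 24.4% and 41.7%, and all 3 marks at 5.26% and 6.25%. These member shares are over all members, acetylated or not. With a window of 5 kb all 3 marks met at 21.1% of cytoplasmic genes, through CARS1 and FARSA. The sparse regions hold LARS2, and without them H3K27ac lay at 100% of mitochondrial genes. Summing all H3K27ac peaks in the window gave a median of 2338 bp at cytoplasmic genes. The remaining windows, the canonical TSSs, the peaks nearest to the gene's own TSS and the set without GARS1 and KARS1 kept every share of FLI1 and SSRP1 inside the interval of the value reported. No paired analysis was possible because each target has 1 library and the labels give no replicate numbers. With 35 genes the intervals are wide, peak lists hold only what passed the authors' threshold, and a gene without a peak may carry a weaker signal.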
